A study of Mus musculus with 12 samples.

Results

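The regulators of G protein signalling described here are the products of 9 genes, Rgs2, Rgs3, Rgs4, Rgs5, Rgs6, Rgs7, Rgs10, Rgs12 and Rgs14, measured by bulk RNA sequencing in heart ventricles of 12 mice. Members were taken by gene symbol, and all 9 were found among the 14957 genes of the deposited count tables and were among the 13910 genes tested after a filter on low counts. They were chosen by gene name, with no threshold on values but with measured differences between these libraries in view. Which comparison was in view is not stated, and TAC-mScarlet against Sham-NT is treated here as that one, so there the members' values are a description and carry no test. Both comparisons with TAC-BacNav share libraries with it and may have been in view too, so p-values of members there are not free of that choice. All mice were labelled C57Bl/6J with genotype WT, and age and sex are not stated in the labels. TAC-BacNav mice underwent TAC, a surgical narrowing of the aortic arch that raises the pressure load on the left ventricle, and were given AAV9-MHCK7-BacNav-mScarlet, a viral vector that places a bacterial sodium channel and a red fluorescent protein behind MHCK7, a promoter active in heart and skeletal muscle. TAC-mScarlet mice had the same constriction and AAV9-MHCK7-mScarlet, the vector without the channel. Sham-NT mice were operated on without constriction and were injected with PBS in place of vector. Each group held 4 mice with 1 library each. Constriction and vector therefore change together wherever a TAC group is set against Sham-NT, and their parts cannot be told apart.

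A G protein-coupled receptor switches its G protein on by loading the alpha subunit with GTP, and the signal lasts until that GTP is hydrolysed. RGS proteins bind the active alpha subunit and speed the hydrolysis, which shortens signalling through Gq and Gi. In the heart the Gq pathway, driven by angiotensin, endothelin and alpha-adrenergic receptors, is known for its role in hypertrophy, and the Gi pathway, driven by muscarinic and adenosine receptors, for slowing the beat. The members fall into known subfamilies. Rgs2, Rgs3, Rgs4 and Rgs5 belong to the R4 subfamily, Rgs6 and Rgs7 to the R7 subfamily, whose proteins are stable only when bound to the G beta 5 subunit, and Rgs10, Rgs12 and Rgs14 to the R12 subfamily.

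Library totals ran from 7361063 to 11497836 counts in TAC-BacNav, 8275608 to 9813733 in TAC-mScarlet and 5360869 to 7837342 in Sham-NT, so every Sham-NT library was shallower than every TAC-mScarlet library. Levels below are in CPM, each count scaled to a common library size after TMM normalization, and per-length levels are CPM per kilobase of all annotated exons of a gene. Heart muscle RNA was checked with 8 markers listed for ventricular cardiomyocytes, among them Myh6 and Tnnt2. Their summed level was 60824 to 82304 CPM in TAC-BacNav, 51298 to 67846 CPM in TAC-mScarlet and 80804 to 89822 CPM in Sham-NT. Not all of them are particular to the ventricle, so this sum alone does not tell ventricle from atrium. Of 10 listed atrial markers, the 6 in the files summed to 63.5 to 76.3, 63.9 to 79.3 and 67.0 to 93.5 CPM in the same order of groups. Libraries also split by the immediate early gene Fos, at 54.9 to 301 CPM in 7 libraries (TAC-BacNav 1 and 2, TAC-mScarlet 1, 2 and 3, Sham-NT 1 and 2) and at 1.60 to 7.89 CPM in the other 5. Values of the R4 genes Rgs2, Rgs3, Rgs4 and Rgs5 are given within these sides as well, and those of the other members are not. A gene is called when its adjusted p in edgeR's quasi-likelihood test, over all 13910 genes, lies below 0.05. In TAC-mScarlet against Sham-NT 719 genes were called, but 14 without Sham-NT 2, 20 without Sham-NT 4 and 97 without TAC-mScarlet 3. Loss of a call without 1 of these libraries was thus common to most called genes. The lists of other genes below were chosen with earlier results of these data known, so their p-values are not free of that choice.

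Of the 9 genes, 4 lie on chromosome 1 of the mouse build GRCm38 and the others on 5 further chromosomes. The 250 bases before the RefSeq start site (GRCm38.p6) are shown for Rgs2, Rgs6 and Rgs7, the members whose levels lay lowest in TAC-mScarlet relative to Sham-NT, and for Rgs5, the member with the highest level. Sequences run 5′ to 3′ on the strand of the gene, and capitals mark TGACG or its reverse complement CGTCA, the core of the cAMP response element. The windows are chr1:144004150-144004399 (minus strand) for Rgs2, chr12:82617249-82617498 (plus strand) for Rgs6, chr1:175492546-175492795 (minus strand) for Rgs7 and chr1:169655251-169655500 (plus strand) for Rgs5. The RefSeq starts of Rgs2 and Rgs6 used here lie inside their GENCODE genes. The window of Rgs2 overlaps the end of that gene, which extends to base 144004161.
Rgs2: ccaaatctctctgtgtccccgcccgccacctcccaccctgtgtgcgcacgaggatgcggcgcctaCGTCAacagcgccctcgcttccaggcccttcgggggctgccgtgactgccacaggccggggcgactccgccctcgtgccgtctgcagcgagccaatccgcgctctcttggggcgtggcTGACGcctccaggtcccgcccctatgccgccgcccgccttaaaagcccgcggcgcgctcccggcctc
Rgs6: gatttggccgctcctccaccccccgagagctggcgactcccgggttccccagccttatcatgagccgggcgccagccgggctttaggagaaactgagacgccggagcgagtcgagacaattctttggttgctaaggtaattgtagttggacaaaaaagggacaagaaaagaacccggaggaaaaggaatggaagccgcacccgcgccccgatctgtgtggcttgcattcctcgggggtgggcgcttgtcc
Rgs7: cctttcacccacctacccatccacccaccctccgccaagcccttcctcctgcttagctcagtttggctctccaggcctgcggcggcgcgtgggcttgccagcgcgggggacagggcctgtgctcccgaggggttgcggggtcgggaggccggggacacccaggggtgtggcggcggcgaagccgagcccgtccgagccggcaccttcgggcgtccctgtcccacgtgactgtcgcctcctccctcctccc
Rgs5: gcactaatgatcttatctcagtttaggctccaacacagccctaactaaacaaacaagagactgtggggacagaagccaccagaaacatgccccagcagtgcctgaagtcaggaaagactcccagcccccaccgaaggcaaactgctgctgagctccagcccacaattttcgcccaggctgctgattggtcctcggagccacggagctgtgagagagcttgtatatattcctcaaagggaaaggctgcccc
A promoter was matched for 8 of the 9 members, with 10 windows in all. TGACG was searched on both strands and was found in 3 of the 10 windows, against 17.8% of all 32851 RefSeq promoters cut to the same length. In Rgs2 it stood at bases -185 to -181 on the opposite strand and at -67 to -63 on the same strand, counted from -1 at the base before the start site. The other windows with it were those of Rgs4 and the downstream start of Rgs12. The GC box GGGCGG, searched on both strands and sharing no base with these matches, was found in 5 windows, against 32.7% of all promoters, and 4 times in Rgs2 alone. TATAAA was found in 3 windows, against 12.4%, and in Rgs4 it stood at -31 to -26. The windows of Rgs2 and Rgs7 were each 72.4% G and C, with 30 and 22 CpG pairs, and that of Rgs5 was 53.6% with 4, beside medians of 52.4% and 6 over all promoters. The windows of Rgs6 and Rgs7 held none of these 3 motifs, nor did that of Rgs5. A match describes the letters and shows no binding.

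Per length, Rgs5 was the highest of the 9 genes in each of the 12 libraries. Its mean was 239 ± 37.1 CPM per kilobase in TAC-BacNav, 229 ± 31.7 in TAC-mScarlet and 193 ± 29.8 in Sham-NT (SD, n = 4 each), which is 87.3%, 86.2% and 81.7% of the summed per-length level of all 9. Rgs2 stood second in every Sham-NT library, at 18.7 to 21.1 CPM per kilobase. In the TAC groups the range of Rgs2 overlapped those of Rgs4 and Rgs10, and per length the 3 genes averaged 8.88 ± 3.15, 9.34 ± 3.54 and 8.46 ± 1.51 in TAC-BacNav and 7.26 ± 2.49, 10.8 ± 3.92 and 10.7 ± 4.70 in TAC-mScarlet, in that order of genes. In Sham-NT, Rgs4 and Rgs10 averaged 7.38 ± 2.88 and 7.37 ± 1.69 per kilobase, and the 2 genes did not differ beyond their spread. Rgs3 followed at 4.14, 3.88 and 3.45 CPM per kilobase in TAC-BacNav, TAC-mScarlet and Sham-NT.

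The lower part of the order differed between libraries, and a change of order between groups was not shown. Per length, Rgs6 was lower than Rgs12 in each of the 8 TAC libraries, at 0.652 to 1.79 CPM per kilobase against 1.59 to 2.25 in TAC-BacNav and 1.01 to 1.16 against 1.68 to 2.29 in TAC-mScarlet, while in Sham-NT the ranges of Rgs6 (1.34 to 2.45) and Rgs12 (1.38 to 1.73) overlapped. Rgs14 and Rgs7 were lowest in all groups, at means of 0.401 and 0.161 CPM per kilobase in TAC-BacNav, 0.296 and 0.0433 in TAC-mScarlet and 0.251 and 0.406 in Sham-NT. In Sham-NT their order could not be told apart beyond the spread, with Rgs7 at 0.231 to 0.714 and Rgs14 at 0.0461 to 0.605. In TAC-BacNav 1 Rgs7 stood above Rgs14, at 0.444 against 0.329 CPM per kilobase.

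**Figure D1:**
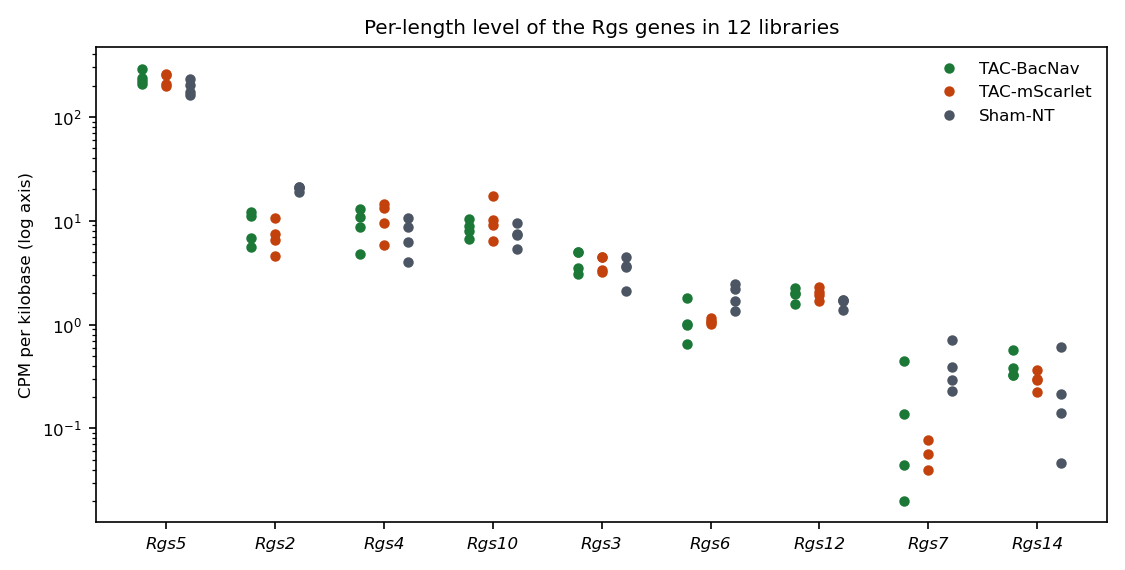
Per-length level of the 9 Rgs genes in 12 libraries, as CPM per kilobase of annotated exon on a log axis, with a point per library and the groups TAC-BacNav, TAC-mScarlet and Sham-NT from left to right at each gene. Rgs5 stands highest in every library, Rgs2 is second in all 4 Sham-NT libraries, and the TAC-mScarlet library with 0 counts of Rgs7 cannot be drawn on a log axis.

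Rgs2, an R4 protein known to act mainly on Gq and to restrain Gq signalling in heart and vessels, was lower in all TAC libraries than in all Sham-NT libraries. Its level was 43.9, 39.8, 20.3 and 24.8 CPM in TAC-BacNav 1 to 4, 23.4, 38.2, 27.2 and 16.6 CPM in TAC-mScarlet 1 to 4, and 75.1, 76.5, 67.8 and 75.8 CPM in Sham-NT 1 to 4. The lowest Sham-NT library stood above the highest TAC library, while the TAC groups overlapped each other. Means were 32.2 ± 11.4 CPM in TAC-BacNav, 26.3 ± 9.03 CPM in TAC-mScarlet and 73.8 ± 4.04 CPM in Sham-NT (SD, n = 4 each), and the spread was wider in both TAC groups. In bulk tissue, fewer cells of a type and less RNA per cell cannot be told apart. The summed ventricular cardiomyocyte markers were likewise below every Sham-NT library in all TAC-mScarlet libraries. TAC-BacNav overlapped Sham-NT by TAC-BacNav 1 alone, at 82304 CPM. TAC-BacNav 2, 3 and 4, at 69388, 69276 and 60824 CPM, lay below every Sham-NT library. The part of these markers in the level of Rgs2 was not tested.

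For TAC-mScarlet against Sham-NT the fitted log2 fold change of Rgs2 was -1.48 ± 0.25 (SE), or 0.357-fold, given as a description. Leaving out 1 library at a time gave -1.72 to -1.32. Between TAC-BacNav and TAC-mScarlet, Rgs2 gave 0.29 ± 0.25 (95% interval -0.25 to 0.82, adjusted p = 1 in edgeR's test, Benjamini-Hochberg).

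Against Sham-NT, TAC-BacNav gave -1.20 ± 0.25 for Rgs2 (interval -1.73 to -0.67) with an adjusted p of 0.319 in edgeR's test over all genes, and the ranges did not overlap. The call depended on the model and was made in 3 of 16 alternatives, among them 0 of the 8 fits without 1 library. DESeq2 gave an adjusted p of 0.00656 and edgeR with the Fos side as a term gave 0.0178, while limma-voom gave 0.304. Over all 16 alternatives the adjusted p ran from 0.00656 to 0.835. The Sham-NT libraries are shared with the comparison above, so these fold changes are not independent.

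In each TAC group Rgs2 was higher on the high Fos side. On the high side it was 39.8 to 43.9 CPM in TAC-BacNav and 23.4 to 38.2 CPM in TAC-mScarlet, and on the low side 20.3 to 24.8 CPM and 16.6 CPM. In Sham-NT the sides were 75.1 to 76.5 CPM and 67.8 to 75.8 CPM. On each side every Sham-NT library stood above every TAC library. The number of TAC-mScarlet libraries differs between the sides, 3 on the high and 1 on the low.

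**Figure D2:**
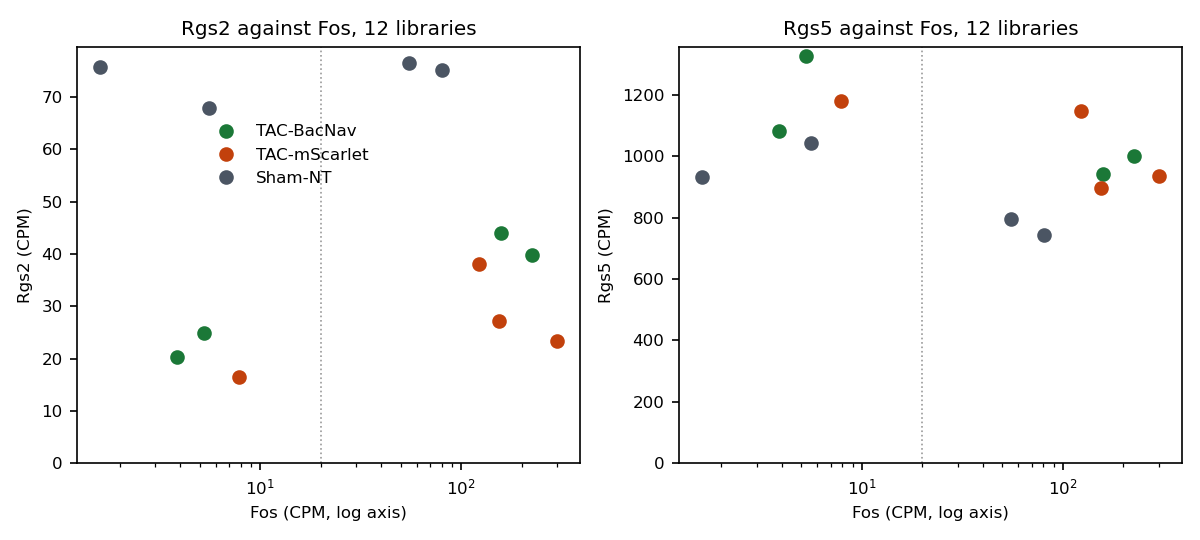
Rgs2 (left) and Rgs5 (right) in CPM against Fos in CPM on a log axis, a point per library, coloured by group, with the dotted line at 20 CPM of Fos dividing the sides. The 4 Sham-NT points lie above all TAC points for Rgs2 on both sides of the line, and for Rgs5 the low-Fos libraries of each group lie above its high-Fos libraries.

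Rgs3, Rgs4 and Rgs5 showed no such gap. Rgs5, known as a marker of pericytes and other vascular mural cells, was 943, 1002, 1081 and 1326 CPM in TAC-BacNav 1 to 4, 934.5, 1145, 897 and 1181 CPM in TAC-mScarlet 1 to 4, and 744, 795, 1043 and 932 CPM in Sham-NT 1 to 4. All 3 groups overlapped, with means of 1088 ± 169, 1039.5 ± 144 and 879 ± 135 CPM in TAC-BacNav, TAC-mScarlet and Sham-NT. Fold changes were 0.24 ± 0.15 for TAC-mScarlet against Sham-NT, 0.07 ± 0.15 for TAC-BacNav against TAC-mScarlet (adjusted p = 1) and 0.31 ± 0.15 for TAC-BacNav against Sham-NT (adjusted p = 0.464). Within each group every library on the high Fos side held less Rgs5 than every library on the low side, 943 to 1002 against 1081 to 1326 CPM in TAC-BacNav, 897 to 1145 against 1181 CPM in TAC-mScarlet and 744 to 795 against 932 to 1043 CPM in Sham-NT.

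Of 10 pericyte markers, Kcnj8, Abcc9 and Pdgfrb among them, 0 were called in any comparison, and their summed level was 557 to 660.3 CPM in TAC-BacNav, 477 to 619 CPM in TAC-mScarlet and 563 to 677 CPM in Sham-NT. Of 10 endothelial markers 0 were called, with sums of 2333 to 3259, 2132 to 2678 and 2140.3 to 2892 CPM in the same order of groups. All 10 of each list were in the files.

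Because both genes were counted in the same library, the ratio of Rgs2 to Rgs5 does not depend on scaling. For every 100 counts of Rgs5 there were 4.66, 3.98, 1.88 and 1.87 counts of Rgs2 in TAC-BacNav 1 to 4, 2.51, 3.33, 3.03 and 1.40 in TAC-mScarlet 1 to 4, and 10.1, 9.62, 6.50 and 8.13 in Sham-NT 1 to 4. The ranges of both TAC groups lay below that of Sham-NT. A ratio shows unequal change of the pair and not which gene moved.

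Rgs3, an R4 protein with several isoforms, was 33.2, 37.5, 54.4 and 53.5 CPM in TAC-BacNav 1 to 4, 35.0, 48.0, 48.4 and 36.2 CPM in TAC-mScarlet 1 to 4, and 22.8, 39.2, 38.6 and 48.4 CPM in Sham-NT 1 to 4. The groups overlapped, and fold changes were 0.17 ± 0.21 for TAC-mScarlet against Sham-NT, 0.09 ± 0.21 for TAC-BacNav against TAC-mScarlet (adjusted p = 1) and 0.26 ± 0.21 for TAC-BacNav against Sham-NT (adjusted p = 0.66). Rgs4, which acts on Gi and Gq and is known from mouse hearts as a brake on hypertrophic signalling, was 14.8, 26.8, 33.8 and 40.4 CPM in TAC-BacNav, 18.2, 29.4, 45.0 and 41.1 CPM in TAC-mScarlet and 12.3, 19.5, 32.9 and 26.8 CPM in Sham-NT. Its range within each group spanned 2.74-fold, 2.48-fold and 2.67-fold, wider than any distance between group means, and the groups overlapped. Fold changes of Rgs4 were 0.54 ± 0.36, -0.21 ± 0.35 (adjusted p = 1) and 0.33 ± 0.36 (adjusted p = 0.759) in the same order of comparisons. In TAC-BacNav and Sham-NT the high Fos side held less Rgs4 (14.8 to 26.8 and 12.3 to 19.5 CPM) than the low side (33.8 to 40.4 and 26.8 to 32.9 CPM), whereas in TAC-mScarlet the sides overlapped. Rgs3 was 33.2 to 37.5 CPM on the high side and 53.5 to 54.4 CPM on the low side in TAC-BacNav. In TAC-mScarlet and Sham-NT the sides overlapped for Rgs3.

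Rgs5 and Rgs4 are neighbours, Rgs5 (ENSMUSG00000026678.10) on chromosome 1 from 169655501 to 169695813 on the plus strand and Rgs4 (ENSMUSG00000038530.11) from 169741477 to 169747642 on the minus strand, with 45663 bases between their 3′ ends. Rgs2 (ENSMUSG00000026360.9) lies on chromosome 1 from 143999338 to 144004161 on the minus strand, and Rgs3 (ENSMUSG00000059810.18) on chromosome 4 from 62559847 to 62704001 on the plus strand.

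The R7 genes were the other members that stood lower in TAC-mScarlet than in Sham-NT. Rgs6, whose protein is known in mice to curb muscarinic slowing of the heart, was 17.9, 9.90, 6.54 and 10.1 CPM in TAC-BacNav 1 to 4, 10.6, 10.8, 10.2 and 11.6 CPM in TAC-mScarlet 1 to 4, and 13.5, 22.1, 24.6 and 17.0 CPM in Sham-NT 1 to 4. TAC-mScarlet was narrow and lay wholly below Sham-NT, and TAC-BacNav overlapped both, with TAC-BacNav 1 inside the Sham-NT range. Means were 11.1 ± 4.81 CPM in TAC-BacNav, 10.8 ± 0.599 CPM in TAC-mScarlet and 19.3 ± 4.99 CPM in Sham-NT.

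Rgs6 gave a log2 fold change of -0.84 ± 0.25 for TAC-mScarlet against Sham-NT, and -0.98 to -0.70 without 1 library. For TAC-BacNav against TAC-mScarlet it gave 0.05 ± 0.25 (interval -0.49 to 0.58, adjusted p = 1), and for TAC-BacNav against Sham-NT -0.80 ± 0.25 (interval -1.33 to -0.26, adjusted p = 0.367). Without TAC-BacNav 1 the TAC-BacNav against TAC-mScarlet value was -0.28. Rgs6 (ENSMUSG00000021219.16) lies on chromosome 12 from 82588292 to 83162056 on the plus strand, and 77 bases of its exons are shared with the antisense gene Gm29530, so those reads cannot be assigned while the strand setting is not given.

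Rgs7, best known from neurons, was close to the detection limit. It had 23, 1, 2 and 10 counts in TAC-BacNav 1 to 4, 2, 3, 0 and 4 counts in TAC-mScarlet 1 to 4, and 7, 22, 18 and 11 counts in Sham-NT 1 to 4. The corresponding levels were 2.67, 0.121, 0.267 and 0.822 CPM, 0.239, 0.340, 0 and 0.464 CPM, and 1.39, 4.29, 2.33 and 1.76 CPM. A count of 0 in TAC-mScarlet 3 allows a level of up to 0.288 CPM, taken as 3 counts and covering counting error alone. Every TAC-mScarlet library lay below every Sham-NT library although the TAC-mScarlet libraries were deeper, and 23 of the 36 counts of TAC-BacNav came from TAC-BacNav 1.

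The log2 fold change of Rgs7 for TAC-mScarlet against Sham-NT was -3.20 ± 0.82, from 9 counts in all TAC-mScarlet libraries and 58 in all Sham-NT libraries. Leaving out 1 library at a time gave -3.62 to -2.75. Of 12 listed Schwann cell and neuron markers 7 were in the files, with summed levels of 31.2 to 46.4 CPM in TAC-BacNav, 37.9 to 55.9 CPM in TAC-mScarlet and 36.8 to 52.9 CPM in Sham-NT, which overlapped. Of the 6 tested, 2 fell in TAC-mScarlet against Sham-NT and 0 rose, where 2.52% of all genes were called lower and 2.65% higher. Their median was -0.10. Among those that fell was Dbh (-2.06 ± 0.44, adjusted p = 0.0233), called in 4 of 8 fits without 1 library and not when TAC-mScarlet 3, TAC-mScarlet 4, Sham-NT 2 or Sham-NT 4 was left out. Their part in the level of Rgs7 was not tested. TAC-BacNav 1, the library with most Rgs6 and Rgs7 among the TAC groups, also had the highest ventricular marker sum among them, 82304 CPM. For TAC-BacNav against TAC-mScarlet Rgs7 gave 1.90 ± 0.87 (interval 0.055 to 3.75, unadjusted p = 0.0443, adjusted p = 1), and without TAC-BacNav 1 it was 0.77. For TAC-BacNav against Sham-NT it gave -1.30 ± 0.68 (adjusted p = 0.489), and -2.42 without TAC-BacNav 1. Rgs7 (ENSMUSG00000026527.13) lies on chromosome 1 from 175059087 to 175492500 on the minus strand. Across the 12 libraries log2(CPM + 1) of Rgs6 and Rgs7 had a Pearson r of 0.88, the highest of any pair of members, a description of libraries that share group and depth.

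Of the 5 listed partners of R7 proteins, Rgs7bp and Gnb5 were in the files, and 0 of these 2 were called in any comparison. Rgs7bp, which anchors R7 proteins at the membrane, was 8.25, 14.1, 7.87 and 9.04 CPM in TAC-BacNav 1 to 4, 11.6, 9.85, 4.70 and 4.99 CPM in TAC-mScarlet 1 to 4, and 21.8, 18.2, 14.2 and 11.1 CPM in Sham-NT 1 to 4. TAC-mScarlet overlapped Sham-NT by TAC-mScarlet 1, and the log2 fold change was -1.07 ± 0.305 (adjusted p = 0.0564, edgeR). Gnb5, the G beta 5 subunit itself, averaged 32.3 ± 2.95, 31.0 ± 1.32 and 31.2 ± 4.30 CPM in TAC-BacNav, TAC-mScarlet and Sham-NT, with a log2 fold change of -0.01 ± 0.12 for TAC-mScarlet against Sham-NT. Both genes were named after their values were seen.

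For each of the R12 genes the groups overlapped. Rgs10, known for its abundance in macrophages, microglia and platelets, was 11.5, 17.6, 15.2 and 13.6 CPM in TAC-BacNav 1 to 4, 17.2, 10.9, 29.7 and 15.5 CPM in TAC-mScarlet 1 to 4, and 16.3, 12.7, 9.19 and 12.3 CPM in Sham-NT 1 to 4. The groups overlapped, and TAC-mScarlet 3 was the highest library. Its log2 fold change for TAC-mScarlet against Sham-NT was 0.55 ± 0.27, with 0.21 without TAC-mScarlet 3 and 0.73 without TAC-mScarlet 2. For TAC-BacNav against TAC-mScarlet it was -0.35 ± 0.26 (adjusted p = 1), with -0.01 without TAC-mScarlet 3 and -0.53 without TAC-mScarlet 2, and for TAC-BacNav against Sham-NT 0.21 ± 0.27 (adjusted p = 0.798).

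TAC-mScarlet 3 was also the library with the most macrophage and fibroblast transcripts. The summed level of 10 macrophage and monocyte markers was 766 to 887 CPM in TAC-BacNav, 773 to 1248 CPM in TAC-mScarlet and 544 to 667 CPM in Sham-NT, with 1248 CPM in TAC-mScarlet 3. For TAC-mScarlet against Sham-NT 5 of the 10 rose and 0 fell, Adgre1 among them, and all 10 were in the files, but each of the 5 calls was lost without Sham-NT 2, without Sham-NT 4 or without TAC-mScarlet 3. The share of all genes called in this comparison was 2.65% higher and 2.52% lower. The 9 fibroblast markers, 4 of which rose, summed to 2849 to 3458, 3195 to 6752 and 2203 to 2949.6 CPM in the 3 groups, with 6752 CPM in TAC-mScarlet 3. Their 4 calls were lost without Sham-NT 2 or without Sham-NT 4. Those of Col1a1, Postn and Meox1 were also lost without TAC-mScarlet 3, TAC-mScarlet 4 or Sham-NT 1, and that of Lum was not. Of the 8 ventricular cardiomyocyte markers 3 fell in the same comparison (Tnni3, Tnnt2 and Myh6), and these calls held in 5, 1 and 0 of the 8 fits without 1 library, in none of them without Sham-NT 2 or Sham-NT 4. Of the other lists, 1 of 6 atrial markers rose and 1 fell, 1 of 7 smooth muscle markers rose and 1 fell, and 0 of 5 sinus node, 0 of 3 lymphocyte and platelet and 0 of 13 immediate early genes were called, the last with a median log2 fold change of 1.502. The part of these differences in cell markers in the levels of any Rgs gene was not tested.

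Rgs12, a large scaffold with a GoLoco motif that holds inactive Gi subunits, was 16.6, 17.1, 13.5 and 19.1 CPM in TAC-BacNav 1 to 4, 16.5, 17.6, 19.5 and 14.3 CPM in TAC-mScarlet 1 to 4, and 14.7, 11.7, 14.2 and 14.6 CPM in Sham-NT 1 to 4. Most TAC libraries stood above the Sham-NT range, but TAC-BacNav 3 and TAC-mScarlet 4 lay within it. Fold changes were 0.30 ± 0.15 for TAC-mScarlet against Sham-NT, -0.03 ± 0.15 for TAC-BacNav against TAC-mScarlet (adjusted p = 1) and 0.27 ± 0.15 for TAC-BacNav against Sham-NT (adjusted p = 0.524). Its exons share 467 bases with the antisense gene Gm43791. Rgs14, which also carries a GoLoco motif and is known for its place in hippocampal neurons, had 12, 20, 12 and 17 counts in TAC-BacNav 1 to 4, 8, 11, 16 and 11 counts in TAC-mScarlet 1 to 4, and 3, 1, 7 and 16 counts in Sham-NT 1 to 4. Sham-NT spanned 0.195 to 2.56 CPM and contained every TAC library, so no difference was detectable at this depth, with fold changes of 0.20 ± 0.52 for TAC-mScarlet against Sham-NT, 0.42 ± 0.48 for TAC-BacNav against TAC-mScarlet (adjusted p = 1) and 0.62 ± 0.51 for TAC-BacNav against Sham-NT (adjusted p = 0.662). The last of these was 0.31 without Sham-NT 2 and 1.48 without Sham-NT 4, and for TAC-mScarlet against Sham-NT the same omissions gave -0.12 and 1.06.

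Rgs10 (ENSMUSG00000030844.11) lies on chromosome 7 from 128373621 to 128418758 on the minus strand, Rgs12 (ENSMUSG00000029101.16) on chromosome 5 from 34949445 to 35039644 on the plus strand, and Rgs14 (ENSMUSG00000052087.14) on chromosome 13 from 55369732 to 55384687 on the plus strand.

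**Figure D3:**
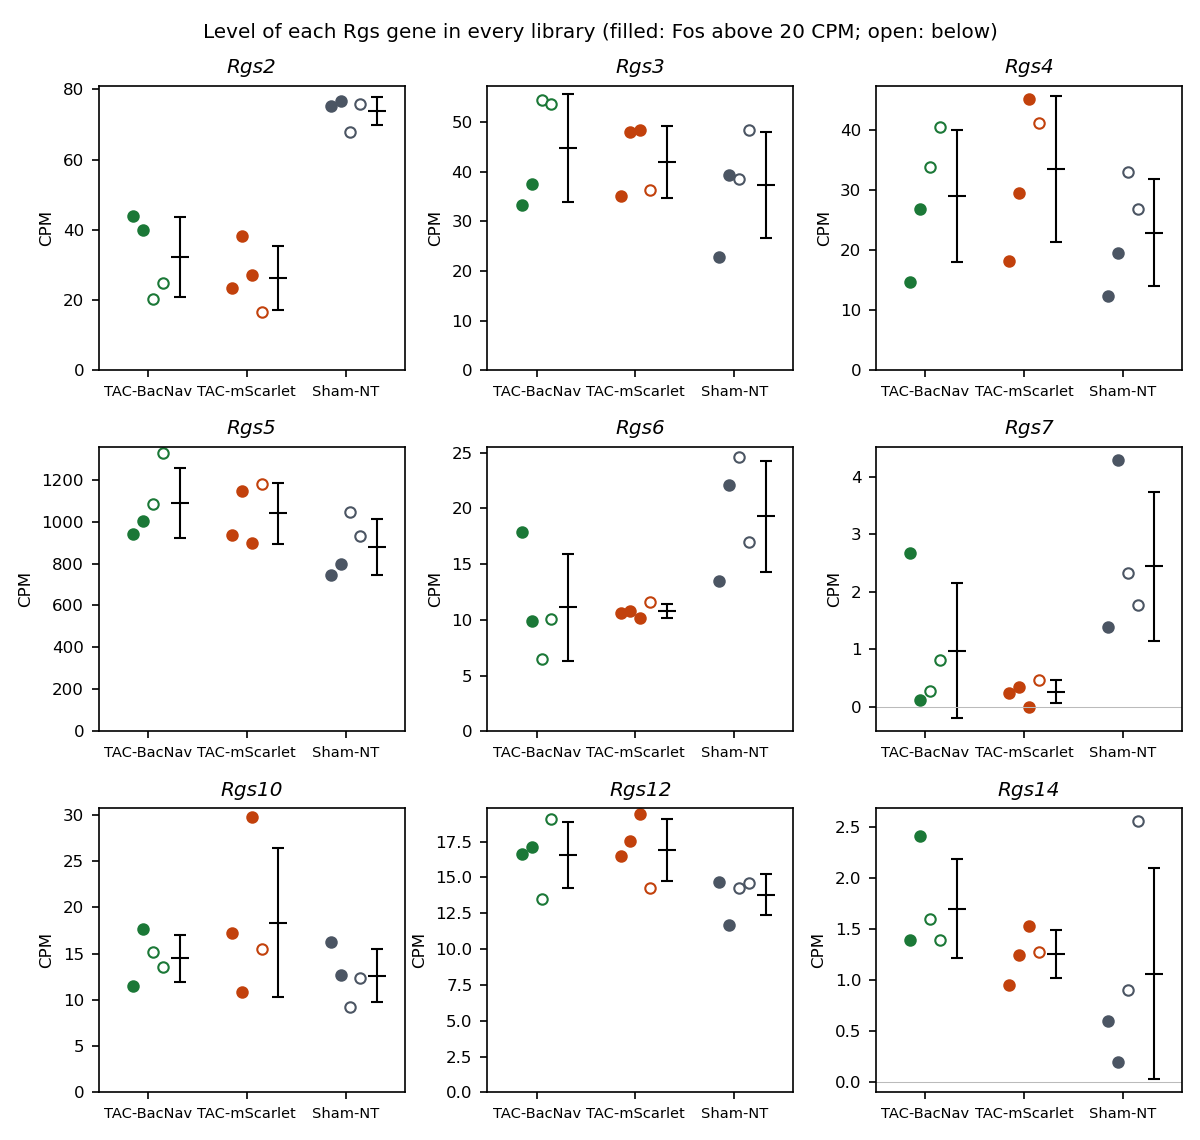
Level of each Rgs gene in CPM, a point per library, with TAC-BacNav, TAC-mScarlet and Sham-NT from left to right and the mean and SD of 4 libraries beside each group (filled points, Fos above 20 CPM; open points, Fos below). Rgs2 at 67.8 to 76.5 CPM in Sham-NT stands clear of both TAC groups, Rgs6 and Rgs7 in TAC-mScarlet lie below Sham-NT, and in the other 6 panels the groups overlap.

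Set beside all genes, the counts for the 9 members were as follows. In TAC-mScarlet against Sham-NT, 2 members were called lower, 0 higher and 7 not called, where 2.52% of the 13910 genes were called lower, 2.65% higher and 5.17% in either direction. No overlap between the groups was seen for 3 members, all lower, against 6.78% of all genes that did not overlap and were lower and 6.33% that were higher. Those called were Rgs2, not without Sham-NT 2 or Sham-NT 4, and Rgs7, whose call held only without Sham-NT 3 among the 8 fits without 1 library. Without Sham-NT 2 or Sham-NT 4 Rgs2 still gave -1.47, and calls over all genes fell from 719 to 14 and 20. The counts of members rest on the comparison treated as the one that chose them, and nothing is read from these counts. The members' median log2 fold change was 0.20, beside 0.004 for all genes.

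In TAC-BacNav against TAC-mScarlet, 0 of 9 members and 0% of all genes were called by edgeR, whose smallest adjusted p over all genes was 0.78. At an unadjusted p below 0.05 there was 1 member, Rgs7, against 3.36% of all genes, and 0 members were called by DESeq2 or limma-voom. Of the 9, 0 had groups that did not overlap, against 1.7% of all genes, 0.762% higher. The 95% intervals of the log2 fold change run from -0.25 to 0.82 for Rgs2 and from -0.49 to 0.58 for Rgs6. Those of Rgs4, Rgs7, Rgs10 and Rgs14 are -0.97 to 0.56, 0.055 to 3.75, -0.89 to 0.20 and -0.59 to 1.435. With 4 libraries a group, differences inside these intervals remain compatible with the data.

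In TAC-BacNav against Sham-NT, 0 of 9 members were called, against 0.0144% of all genes in either direction. By unadjusted p below 0.05 there were 2 members, Rgs2 and Rgs6, against 11.1% of all genes. Rgs2 was the only member of the 9 without overlap between these groups, where 2.37% of all genes did not overlap and were lower, 3.08% were higher and 5.45% did either. DESeq2 called 1 member, Rgs2, and limma-voom called 0. The median fold change of the members was 0.26, beside 0.008 for all genes. The sign of the fold change was the same as in TAC-mScarlet against Sham-NT for each member, and both comparisons share the Sham-NT libraries.

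**Figure D4:**
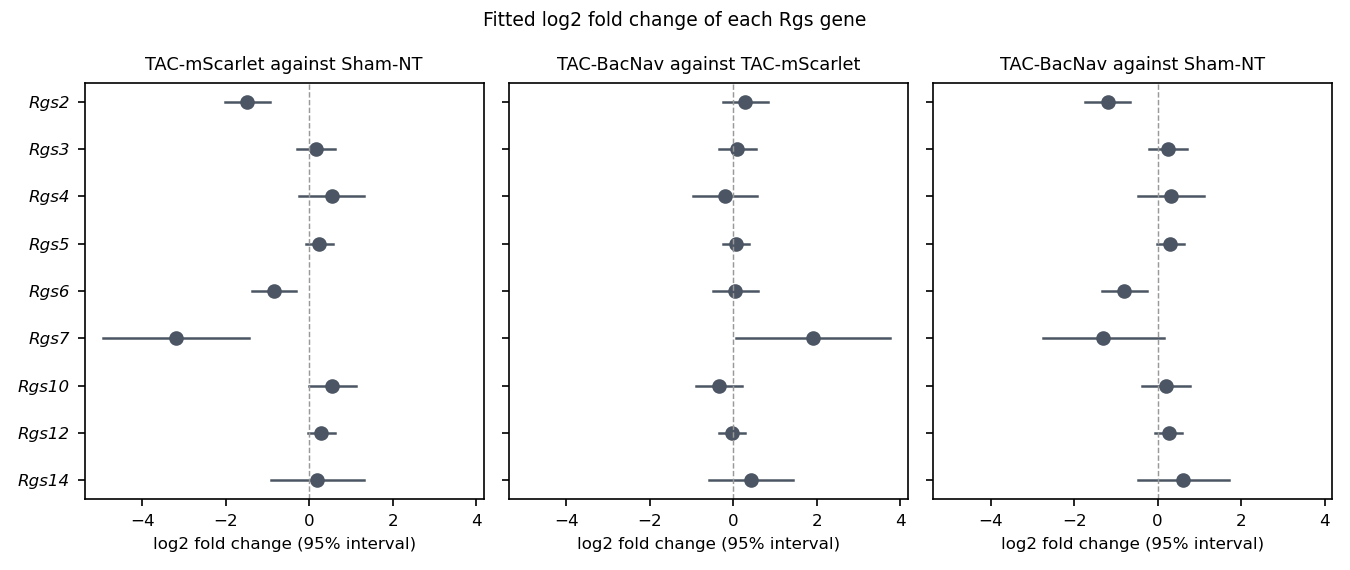
Fitted log2 fold change of each Rgs gene with its 95% interval for TAC-mScarlet against Sham-NT, TAC-BacNav against TAC-mScarlet and TAC-BacNav against Sham-NT (points, fitted values; lines, intervals). Rgs2 lies at -1.48 in the left panel and -1.20 in the right one, and in the middle panel the interval of every gene but Rgs7 covers 0. The left panel shows the comparison treated as the one that chose the members, and its intervals do not allow for that choice.

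The other genes of the pathway were read from lists chosen with earlier results of these data known. The p-values of list genes in this and the following paragraphs are not free of that choice. Of 27 other RGS proteins and RGS-like regulators, 20 were in the files and 19 tested, and 0 were called in any of the 3 comparisons. Their median for TAC-mScarlet against Sham-NT was 0.20. Closest to a call were the receptor kinases Grk5, at 58.5 ± 10.0 CPM in TAC-BacNav, 75.9 ± 15.2 CPM in TAC-mScarlet and 51.9 ± 5.63 CPM in Sham-NT (0.55 ± 0.15 for TAC-mScarlet against Sham-NT, adjusted p = 0.0515), and Grk3 (-0.52 ± 0.16, adjusted p = 0.0741), both chosen after their values were seen. G beta and gamma subunits had 0 of 11 called.

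Of 10 G alpha subunits tested, 3 rose, 0 fell and 7 did not pass in TAC-mScarlet against Sham-NT. Over all genes tested, 2.65% were called higher and 2.52% lower in that comparison. The list is not limited to the Gq and Gi pathways and includes Gnas, Gna12 and Gna13. Gnao1, the alpha subunit of Go, was 22.2, 24.5, 41.9 and 50.6 CPM in TAC-BacNav 1 to 4, 53.2, 41.8, 46.2 and 59.8 CPM in TAC-mScarlet 1 to 4, and 24.0, 21.1, 25.4 and 20.03 CPM in Sham-NT 1 to 4. TAC-mScarlet lay wholly above Sham-NT and TAC-BacNav overlapped both (1.15 ± 0.23, adjusted p = 0.0227 for TAC-mScarlet against Sham-NT). The Gi subunit Gnai3 rose by 0.47 ± 0.12 (adjusted p = 0.0381) and the alpha subunit gene Gna13 by 0.45 ± 0.13 (adjusted p = 0.0498). The list's median was 0.30, beside 0.004 for all genes. The call of Gnao1 was lost without Sham-NT 2 or Sham-NT 4, and those of Gnai3 and Gna13 held in 2 and 1 of the 8 fits that left out 1 library.

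Among 22 tested effectors 1 rose, the adenylyl cyclase gene Adcy7 (1.12 ± 0.25, adjusted p = 0.0278), and 0 fell, while Kcnj3, a subunit of the potassium channel opened by G beta and gamma, gave -1.14 ± 0.32 (adjusted p = 0.0585) and was chosen after its values were seen. Among 20 tested cardiac G protein-coupled receptors 3 rose and 3 fell. Beside both lists, 2.65% of all genes were called higher and 2.52% lower. The thrombin receptor gene F2r averaged 59.5 ± 9.57 CPM in TAC-BacNav, 83.8 ± 20.2 CPM in TAC-mScarlet and 38.2 ± 5.43 CPM in Sham-NT (1.13 ± 0.17 for TAC-mScarlet against Sham-NT, adjusted p = 0.00674), and kept its call whichever of the 8 libraries was left out. The endothelin receptor gene Ednrb (0.86 ± 0.19, adjusted p = 0.0258) and the sphingosine phosphate receptor gene S1pr2 (0.85 ± 0.22, adjusted p = 0.037) also rose. The purinergic receptor gene P2ry1 (-0.80 ± 0.15, adjusted p = 0.0189), the G protein-coupled receptor gene Mas1 (-2.41 ± 0.599, adjusted p = 0.0339) and the adenosine receptor gene Adora1 (-1.12 ± 0.296, adjusted p = 0.0406) fell. Without Sham-NT 2 or without Sham-NT 4 the calls of Adcy7, Ednrb, S1pr2, P2ry1, Mas1 and Adora1 were lost, and each but P2ry1 also lost its call without TAC-mScarlet 3. In both comparisons with TAC-BacNav 0 genes of these lists were called.

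The genes whose log2(CPM + 1) followed a member most closely over the 12 libraries are given as a description, since the libraries share groups and depth. For Rgs2 they included Fgf16 and Rab3a, with Pearson r of 0.935 and 0.927 among 10374 genes of at least 5 CPM. For Rgs5 they were Pecam1, Clec1a and Rasal2, at 0.962, 0.943 and 0.942. Pecam1, an endothelial adhesion gene, ran from 172 to 268 CPM in TAC-BacNav, 176 to 242 CPM in TAC-mScarlet and 143 to 209 CPM in Sham-NT. For Rgs7 they were Stk39, Impdh2 and Paqr9, at 0.911, 0.908 and 0.905.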

How the data were processed

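RNA was sequenced from ventricles of 12 mice, 4 per group by the mouse names in the labels. The deposited values are whole-number counts per gene. Per the submitters' processing notes the authors used HISAT2 and featureCounts; their versions and the strand setting are not stated there, and the notes name GRCh38 although the identifiers are mouse. Of 14957 identifiers 14946 matched GENCODE vM21 (GRCm38) without their version, and all 9 members with it. The lowest total of a gene in the files was 30 counts.

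Counts as deposited were tested in R 4.3.3 with edgeR 4.0.16 (filterByExpr by group, TMM, robust quasi-likelihood, all 12 libraries, two-sided, Benjamini-Hochberg over 13910 genes, called below 0.05). SE is the fold change over the root of the F statistic, with 95% t intervals. Alternatives used DESeq2 1.42.0, limma 3.58.1 voom, other scalings, no filter, 2 groups, a replicate block, the Fos side and leaving out each library. Within groups, every pair of libraries differed by more than counting noise (chi-square over degrees of freedom at least 5.35). Each library is a separate mouse, and counting limits cover counting error alone. Depth and levels stand in the results.

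Members and lists were chosen with earlier results of these data known. Named are the 9 members, up to 4 called genes per list and direction, the 3 genes most like Rgs2, Rgs5 and Rgs7, the markers, Fos and Egr1; a few genes that this rule names are not reported here.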

Additional observations from a re-analysis of the deposited data

Results flagged for a closer look

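Among 27 sets of 4 libraries, 1 for each gene and group, 2 had a library far from the other 3 by Dixon's ratio of gap to range, taken at its 95% critical value for 4 samples. Chance gives about 1 such library in 20 groups. Rgs12 in Sham-NT 2 was 11.7 CPM, below the other Sham-NT libraries at 14.2 to 14.7 CPM, with a ratio of 0.853. Rgs2 in Sham-NT 3 was 67.8 CPM, below the other Sham-NT libraries at 75.1 to 76.5 CPM, with a ratio of 0.841, and it remained above every TAC library.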

How the results depend on the processing

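Of 144 member values recomputed for TAC-mScarlet against Sham-NT, 129 kept direction and side of the threshold, 9 lost the call, 4 gained it and 2 changed sign. That comparison is treated as the one that chose the members, so member calls in it, here and below, are a description and test nothing. For TAC-BacNav against TAC-mScarlet the direction and side were kept in 133 of 143, and 10 changed sign, and for TAC-BacNav against Sham-NT in 141 of 144, with 3 gaining the call. Over all genes TAC-mScarlet against Sham-NT gave 719 calls, 1371 with DESeq2, 467 with limma-voom, 1459 with the Fos side as a term and 14 to 1055 without 1 library. The fewest were 14 without Sham-NT 2 and 20 without Sham-NT 4. With library size scaling 903 were called, 698 higher and 205 lower, since the median of all genes shifted to 0.131, and no member changed sign under that scaling. TAC-BacNav against TAC-mScarlet gave 0 calls, 5 with DESeq2, 1 with the 2 groups only and 6 with the replicate block. TAC-BacNav against Sham-NT gave 2, 38 with DESeq2, 1 with the 2 groups only, 12 with the block, 8 with the Fos side and 0 to 15 without 1 library. Members called were 2 in TAC-mScarlet against Sham-NT and 0 to 2 without 1 library. There they were 3 with DESeq2, the 2 groups only or the Fos side, where Rgs6 was added, and 3 with the replicate block, where Rgs4 was added. In TAC-BacNav against Sham-NT they were 0, and 1 (Rgs2) with DESeq2, the replicate block or the Fos side. Same-numbered libraries correlated at -0.292 to 0.379 over genes, not above 0.1 in every pair of any comparison, and the labels give a number no shared origin, so the numbers were not taken as pairs, although libraries numbered 1, 2 and 4 each lay on 1 Fos side in all groups. The block moved Rgs2 in TAC-BacNav against Sham-NT to -1.25 (adjusted p = 0.0424) and left TAC-mScarlet against Sham-NT at 889 calls, with Rgs4 called there at 0.55 (SE 0.134, against 0.362 without the block). Values close to 0 changed sign. In TAC-mScarlet against Sham-NT these were Rgs3 (-0.0054 without Sham-NT 1) and Rgs14 (-0.117 without Sham-NT 2), with 0.32 and 1.06 as the highest values without 1 library. Between the TAC groups they were Rgs6 (-0.033 with limma-voom, -0.276 without TAC-BacNav 1), Rgs3 (-0.031 with the Fos side, -0.0030 without TAC-BacNav 3, -0.0082 without TAC-BacNav 4), Rgs5 (-0.016 with the Fos side, -0.042 without TAC-BacNav 4), Rgs4 (0.011 without TAC-BacNav 1) and Rgs12 (0.049 without TAC-mScarlet 3, 0.067 without TAC-BacNav 3). Without 1 library the other ends were 0.23 for Rgs6, 0.21 for Rgs3, 0.14 for Rgs5, -0.42 for Rgs4 and -0.10 for Rgs12. The cause was not tested. Rgs7 could not be fitted with TAC-BacNav and TAC-mScarlet alone, since it did not pass the filter there. With 0 to 23 counts per library for Rgs7 and 1 to 20 for Rgs14, depth limits both.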
